A study of Mus musculus with 4 samples.

Results

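The lysosomal genes examined here are 42 genes that encode hydrolases, cathepsins, membrane proteins, part of the proton pump and the TFEB family of transcription factors. They were chosen by symbol from a fixed list, and all 42 were found, each once, among the 55335 genes of the deposited table. Transcript levels were read by RNA-seq in 4 libraries of the mouse line CT26, which the labels call colon adenocarcinoma cells and the growth protocol mesenchymal. The unit is FPKM, which scales fragment numbers to transcript length and library depth. The libraries titled CT26_102_R and CT26_CTL_R are labelled FOSL2-KO with chemoradiotherapy, and those titled CT26_102 and CT26_CTL are labelled FOSL2-WT with PBS. They are called libraries with and without suffix R below, and 2 values of a labelled group are those of its stems CT26_102 and CT26_CTL in that order. Genotype and treatment change together, so their effects cannot be told apart, and the labels give neither the drug, the dose, the time, nor the meaning of the title stems. The design text calls the cells KD cells, and Fosl2 itself stood at 16.0 and 19.2 FPKM under the label FOSL2-KO, against 9.35 and 12.7 FPKM under FOSL2-WT, so its transcript did not follow the genotype labels.

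Lysosomes are acidic compartments in which hydrolases break down proteins, glycans and lipids delivered by endocytosis and autophagy. Their acidity comes from a proton pump, the V-ATPase, and most of the enzymes are carried there on mannose 6-phosphate receptors. The transcription factors TFEB, TFE3 and MITF bind an element with the core CACGTG in the promoters of many lysosomal genes, and TFEB moves into the nucleus when the kinase mTORC1 is inactive. Glb1, the acid beta-galactosidase of lysosomes, is the enzyme behind the galactosidase staining that is used to mark senescent cells.

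The lines below give the 100 bases before the RefSeq start site of 7 of these genes, in build GRCm38.p6 and 5′ to 3′ on the strand of the gene, with every CACGTG in capitals. Glb1 and Naglu had lower transcript in the libraries with suffix R, Ctsd, Hexa and Neu1 higher, and Lamp1 and Mcoln1 did not pass the test described below.
Glb1, chr9:114400978-114401077, plus strand: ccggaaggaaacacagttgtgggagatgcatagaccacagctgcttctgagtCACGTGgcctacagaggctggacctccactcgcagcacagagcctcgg
Naglu, chr11:101069994-101070093, plus strand: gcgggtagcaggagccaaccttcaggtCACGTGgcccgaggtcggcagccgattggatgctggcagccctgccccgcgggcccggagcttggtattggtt
Ctsd, chr7:142387828-142387927, minus strand: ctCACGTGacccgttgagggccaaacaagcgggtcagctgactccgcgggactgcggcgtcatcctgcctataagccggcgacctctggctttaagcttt
Lamp1, chr8:13159061-13159160, plus strand: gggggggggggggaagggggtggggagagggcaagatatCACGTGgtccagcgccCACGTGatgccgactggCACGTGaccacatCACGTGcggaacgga
Mcoln1, chr8:3500419-3500518, plus strand: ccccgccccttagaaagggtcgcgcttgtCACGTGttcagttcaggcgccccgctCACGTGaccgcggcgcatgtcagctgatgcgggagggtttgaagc
Hexa, chr9:59539440-59539539, plus strand: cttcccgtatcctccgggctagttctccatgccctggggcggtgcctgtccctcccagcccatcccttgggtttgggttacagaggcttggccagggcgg
Neu1, chr17:34931153-34931252, plus strand: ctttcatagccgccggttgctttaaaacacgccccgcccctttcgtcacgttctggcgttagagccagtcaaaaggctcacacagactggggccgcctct

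The letters CACGTG, which read the same on both strands, were searched in windows of 250 bases before to 50 bases after each RefSeq start. They were present for 14 of the 37 lysosomal genes with a window (37.8%). Of the 8308 tested genes with a window 1006 held them (12.1%), and of all 27025 genes with one 2187 did (8.09%). The longer form TCACGTG, searched on both strands and always overlapping a CACGTG, was present for 13 of 37 lysosomal genes (35.1%), against 7.34% of tested genes. By the direction of the transcript in the libraries with suffix R, CACGTG was present for 2 of 7 genes that rose, 2 of 3 that fell and 10 of 27 that did not pass. The letters therefore stood before genes of both directions, and a match is no evidence of binding.

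Estimated depth was between 21.88 and 26.71 M fragments per library, and between 11280 and 11904 genes reached 1 FPKM. The summed FPKM of the 42 genes took 0.710% and 0.839% of the total in the libraries with suffix R, against 0.564% and 0.687% in those without. Abundant genes weigh most in this sum, and Ctsd alone was at 503 and 661 FPKM with suffix R, against 205 and 313 FPKM without. Of 9 epithelial markers, 3 and 2 reached 1 FPKM in the libraries with suffix R and 3 and 2 in those without. Epcam and Cdx2 were listed at 0 in all 4, whereas Krt18 was between 34.7 and 76.5 FPKM. Of 14 myeloid markers, 6 and 2 reached 1 FPKM in the libraries with suffix R, against 4 and 4 in those without, and their summed level was 107 and 44.4 FPKM, against 35.7 and 44.6 FPKM. The macrophage genes C1qa and C1qb were listed at 0 in all libraries and Ptprc, the pan-leukocyte gene, was at or under 0.088 FPKM. Library CT26_102_R stood apart in the lysozyme gene Lyz2, at 53.1 FPKM against 4.36 in CT26_CTL_R and 15.0 and 13.1 without suffix R.

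Between the labelled groups 7 lysosomal genes rose in the libraries with suffix R and 3 fell, while 31 of the 41 tested did not pass. Those that rose were Ctsd, Neu1, Fuca1, Atp6v0d1, Hexa, Smpd1 and Ctsz, and those that fell were Glb1, Naglu and Arsb. The list thus did not move one way, and glycosidases were among both. A gene was called when its adjusted p was under 0.05 in a limma fit of log2(FPKM + 1) with terms for labelled group and title stem, over 11955 genes with at least 1 FPKM in at least 2 libraries. Over all tested genes 7.57% rose and 5.32% fell by the same rule (12.9% in either direction), against 7 and 3 of 41 lysosomal genes. With upper-quartile rescaling 7 lysosomal genes rose and 4 fell, and over all genes 937 rose and 1011 fell in place of 905 and 636. At an unadjusted p under 0.05, 14 of 41 lysosomal genes were higher and 6 lower, against 19.2% and 16.9% of all tested genes. The median log2 difference of the 41 genes was 0.18 and that of all tested genes 0.00.

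These calls rest on 1 residual degree of freedom per gene and the spread that limma borrows from other genes. In a limma fit without the title stem, 0 of 41 lysosomal genes passed and the smallest adjusted p was 0.413, where 0.00836% of all tested genes were called. In that fit 10 of 41 had an unadjusted p under 0.05, against 10.7% of all tested genes. As a count without that test, with folds taken on FPKM + 1, 5 lysosomal genes were over 1.5-fold higher in both stems, against 6.15% of all tested genes. On the same scale 3 were over 1.5-fold lower in both, against 4.21%. Ctsh, which encodes cathepsin H, was the gene not tested, at 0.00472 FPKM in CT26_102_R and listed at 0 in the other libraries.

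**Figure D1:**
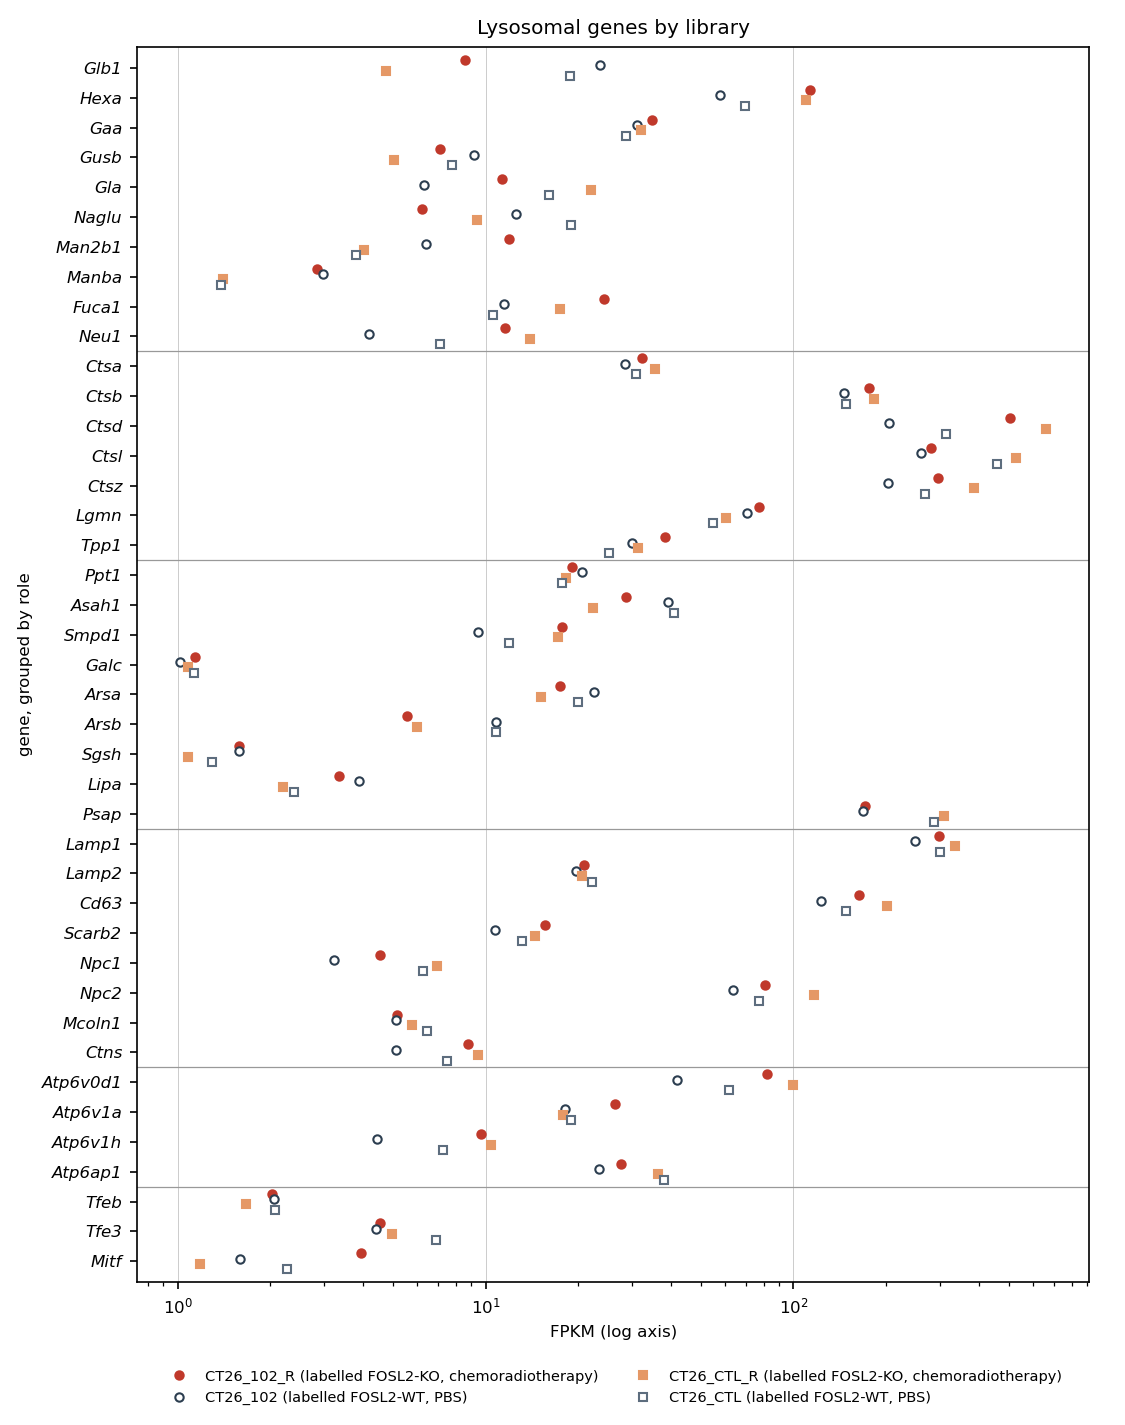
FPKM on a log axis of the 41 tested lysosomal genes in each library, grouped by role from glycosidases at the top to the TFEB family at the bottom; filled symbols are libraries labelled FOSL2-KO with chemoradiotherapy, open symbols those labelled FOSL2-WT with PBS, circles stem CT26_102 and squares stem CT26_CTL. Glb1, at 8.61 and 4.76 FPKM with suffix R, lies left of its open symbols, while Ctsd at 503 and 661 FPKM lies right of them.

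Glb1 fell most of the 41 genes. Glb1 (ENSMUSG00000045594, GRCm38 chromosome 9, 114401076 to 114474898, plus strand) was at 8.61 and 4.76 FPKM in the libraries with suffix R, against 23.5 and 18.8 FPKM in those without. Its levels with suffix R were 0.366 and 0.253 times the partner of the same stem. This is a log2 difference of -1.57 ± 0.16 (SE, n = 2 libraries per group, limma adjusted p = 0.0187), at percentile 0.167 of all 11955 tested genes. Glb1 shares 165 exonic bases (5.49% of its exonic length) with Tmppe on the same strand, which was at 2.31 and 1.84 FPKM with suffix R and 3.09 and 1.41 without.

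Set against the other hydrolases, Glb1 changed its place. It ranked 18th and 20th of 26 hydrolases from the top in the libraries with suffix R, against 11th and 13th in those without. Its level was 0.487 and 0.271 times the median of the 25 other hydrolases with suffix R, against 1.87 and 1.06 times without. That median itself was 17.7 and 17.5 FPKM with suffix R, against 12.6 and 17.7 FPKM without, nearly equal within stem CT26_CTL. Glb1 was at 0.0762 and 0.0432 times Hexa, the alpha subunit of beta-hexosaminidase, in the libraries with suffix R, against 0.407 and 0.2704 times in those without. With 2 libraries against 2, the smallest p of an exact permutation test of such a ratio is 0.333, and the test was left out.

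**Figure D2:**
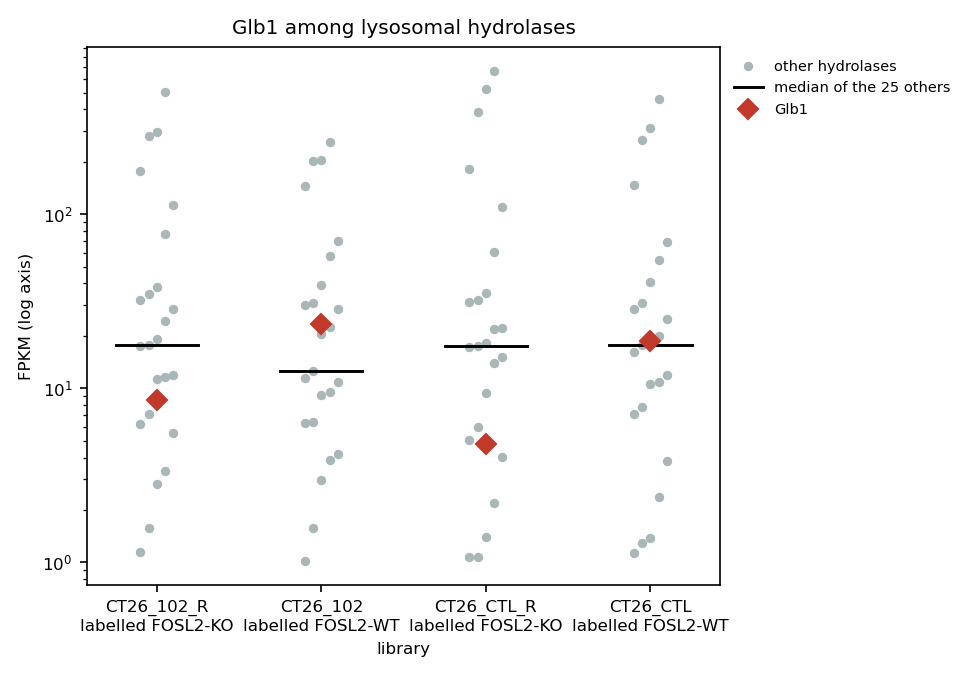
FPKM on a log axis of lysosomal hydrolases in each library, with Glb1 as a red diamond, the others as grey points and the median of the 25 others as a bar; Ctsh, listed at or near 0, is in the median but off the axis. Glb1 lies under the bar in both libraries labelled FOSL2-KO, at 0.487 and 0.271 times the median, and above it in both labelled FOSL2-WT.

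Among the other glycosidases, which cut sugars from glycans and glycolipids, 3 of 9 rose and 1 fell. Over all tested genes 7.57% rose and 5.32% fell. Neu1 (chromosome 17, 34931253 to 34935953), the lysosomal sialidase, was at 11.6 and 13.9 FPKM in the libraries with suffix R, against 4.18 and 7.10 FPKM in those without (log2 difference 1.08 ± 0.16, SE, limma adjusted p = 0.0278). Hexa (chromosome 9, 59539540 to 59565109) was at 113 and 110.2 FPKM with suffix R, against 57.7 and 69.4 FPKM without, a log2 difference of 0.81 ± 0.13. Fuca1 (chromosome 4, 135920735 to 135940311), the alpha-fucosidase, was at 24.2 and 17.5 FPKM with suffix R, against 11.5 and 10.6 FPKM without, a log2 difference of 0.84 ± 0.15.

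Naglu (chromosome 11, 101070012 to 101077672), the glucosaminidase of heparan sulfate breakdown, went with Glb1. Its level was 6.24 and 9.40 FPKM with suffix R, against 12.6 and 18.9 FPKM in those without, 0.497 times its partner in both stems (log2 difference -0.92 ± 0.13, SE, n = 2 per group, limma adjusted p = 0.0256). Gusb, the beta-glucuronidase, was at 7.09 and 5.04 FPKM with suffix R, against 9.18 and 7.76 FPKM without, and did not pass (limma adjusted p = 0.0942). Gla, the alpha-galactosidase deficient in Fabry disease, was at 11.3 and 22.04 FPKM with suffix R, against 6.30 and 16.1 FPKM without, and its groups overlapped (limma adjusted p = 0.0597). The glucosidase Gaa, at 1.12 times its partner in both stems, and the mannosidases Man2b1 and Manba did not pass either. Man2b1 was 1.85 times its partner in stem CT26_102 and 1.06 times in stem CT26_CTL.

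Of 7 tested cathepsins and other peptidases, 2 rose and 0 fell (limma), against 7.57% and 5.32% of all tested genes. At an unadjusted p under 0.05 in that fit 4 were higher and 0 lower, against 19.2% and 16.9%. Ctsd (ENSMUSG00000007891, chromosome 7, 142375911 to 142388038, minus strand), the aspartic protease cathepsin D, had the highest log2 difference of the 41 genes with a pseudocount of 1, while with a pseudocount of 0.1 Neu1 was at 1.21 and Ctsd at 1.19. Its level was 503 and 661 FPKM with suffix R, against 205 and 313 FPKM in those without, 2.46 and 2.11 times its partners (log2 difference 1.19 ± 0.10, SE, n = 2 per group, limma adjusted p = 0.0166). With these values it was also the most abundant of the 42 genes in both libraries labelled FOSL2-KO, whereas Ctsl was ahead of it in both labelled FOSL2-WT. Ctsd shares 808 exonic bases, 34.4% of its exonic length, with the overlapping locus Gm49369 on the same strand, which was at 0.192 and 0.210 FPKM with suffix R and 2.23 and 0.238 FPKM without.

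Ctsz, the carboxypeptidase cathepsin Z, was at 295 and 387 FPKM with suffix R, against 203 and 268 FPKM without (log2 difference 0.53 ± 0.09, SE, limma adjusted p = 0.0340). Its fold was 1.45 and 1.44, and the call was lost without the mean-variance trend and with a trend in exonic length removed. Ctsb, also a cysteine protease, was at 176 and 183 FPKM with suffix R, against 146 and 148 FPKM without, and Ctsl at 280.1 and 527 FPKM with suffix R, against 260 and 459 FPKM without. Neither passed, nor did Ctsa, Lgmn and Tpp1, whose folds lay between 1.10 and 1.28.

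Among 9 lipid hydrolases, sulfatases and the saposin precursor, 1 rose and 1 fell, against 7.57% and 5.32% of all tested genes. Smpd1, the acid sphingomyelinase that makes ceramide, was at 17.7 and 17.2 FPKM in the libraries with suffix R, against 9.47 and 11.9 FPKM in those without (log2 difference 0.66 ± 0.15, SE, limma adjusted p = 0.0498). That call is at the edge of the threshold and was lost with a pseudocount of 0.5 or 0.1. Asah1, the acid ceramidase that cleaves ceramide, was at 28.5 and 22.3 FPKM with suffix R, against 39.1 and 40.9 FPKM without, and missed the threshold (log2 difference -0.65 ± 0.15, limma adjusted p = 0.0539). The signs of the differences of Smpd1 and Asah1 were opposite.

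Arsb (chromosome 13, 93771630 to 93943016), the sulfatase of dermatan sulfate, was at 5.56 and 5.996 FPKM with suffix R, against 10.8 and 10.8 FPKM without (log2 difference -0.80 ± 0.13, SE, n = 2 per group, limma adjusted p = 0.0331). It shares 32.3% of its exonic bases with the antisense locus Gm26527, which was not analysed here, and strandedness is not given in the sources used here. Arsa, the sulfatase of sulfatide, was at 17.5 and 15.1 FPKM with suffix R, against 22.5 and 19.9 FPKM without, and did not pass (limma adjusted p = 0.112). Psap, Ppt1, Lipa, Galc and Sgsh lay between 0.831 and 1.12 times their partners. Galc and Sgsh were at the low end of the list, between 1.02 and 1.58 FPKM.

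Of 8 membrane proteins, cholesterol carriers and channels, 0 rose and 0 fell in the limma fit, against 7.57% and 5.32% of all tested genes. At an unadjusted p under 0.05 in that fit 3 were higher, against 19.2%. Lamp1, the most abundant lysosomal membrane glycoprotein here, was at 297 and 334 FPKM with suffix R, against 249 and 299 FPKM without, so CT26_102_R lay under CT26_CTL. Cd63, a tetraspanin of late endosomes, was at 163 and 201 FPKM with suffix R, against 123 and 148 FPKM without, and missed the threshold (log2 difference 0.42 ± 0.10, limma adjusted p = 0.0556). Npc2, the soluble cholesterol carrier, was at 80.6 and 117 FPKM with suffix R, against 63.8 and 77.2 FPKM without (limma adjusted p = 0.0665). Lamp2 and the calcium channel gene Mcoln1 were between 0.893 and 1.07 times their partners. The cystine exporter Ctns reached 1.72 and 1.26 times, Scarb2 1.46 and 1.10 times, and Npc1 1.41 and 1.11 times, without passing.

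Of the 4 proton pump genes, 1 rose and 0 fell, against 7.57% and 5.32% of all tested genes. Atp6v0d1 (chromosome 8, 105524465 to 105566047), which links the rotor to the membrane ring, was at 82.0 and 99.4 FPKM in the libraries with suffix R, against 41.8 and 61.9 FPKM in those without (log2 difference 0.82 ± 0.13, SE, limma adjusted p = 0.0299). Atp6v1h, a regulatory subunit of the cytosolic part, was at 9.66 and 10.4 FPKM with suffix R, against 4.44 and 7.28 FPKM without, and did not pass (limma adjusted p = 0.0579). The catalytic subunit Atp6v1a was at 26.3 and 17.9 FPKM with suffix R, against 18.1 and 19.0 FPKM without, and the accessory protein Atp6ap1 at 27.5 and 36.3 FPKM, against 23.3 and 38.0 FPKM, so neither kept 1 direction in both stems.

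The transcription factors of the TFEB family were low and 0 of 3 passed in either direction (limma), against 12.9% of all tested genes. At an unadjusted p under 0.05 in that fit 0 of 3 passed as well, where 19.2% of all tested genes were higher and 16.9% lower. Tfeb was at 2.03 and 1.67 FPKM with suffix R, against 2.06 and 2.07 FPKM without. Tfe3, the most abundant of the family, was at 4.56 and 4.96 FPKM with suffix R, against 4.42 and 6.91 FPKM without. Neither transcript was above 1.03 times its partner in any stem, and the activity of these factors, which is set largely by their place in the cell, was not measured.

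Mitf (chromosome 6, 97807052 to 98021349) was at 3.94 and 1.18 FPKM with suffix R, against 1.59 and 2.26 FPKM without, 2.48 times its partner in stem CT26_102 and 0.523 times in stem CT26_CTL. The direction differed between the stems, and with 1 library in each cell this was not tested. Library CT26_102_R, in which Mitf was highest, was also highest in Lyz2, in Tyrobp (13.4 FPKM, against 0 in CT26_CTL_R and 4.92 and 5.09 without suffix R) and in Csf1r (1.998 FPKM, against 0.159 in CT26_CTL_R and 1.10 and 0.965). Of the other myeloid markers, Spi1 was also highest in CT26_102_R, at 1.69 FPKM. Adgre1, Itgam and Aif1 were highest there too, but only at 0.132, 0.386 and 0.078 FPKM, and Itgam was at 0.370 FPKM in CT26_CTL. In contrast, Cd14 was highest in CT26_CTL_R (38.8 FPKM, against 34.8 in CT26_102_R), and Fcer1g and Ptprc were highest in CT26_CTL. Cx3cr1 and Mrc1 were not highest in CT26_102_R either, and C1qa and C1qb were listed at 0. In bulk RNA more cells of a type and more RNA per cell cannot be told apart. The part of myeloid transcripts in the Mitf values was not tested.

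**Figure D3:**
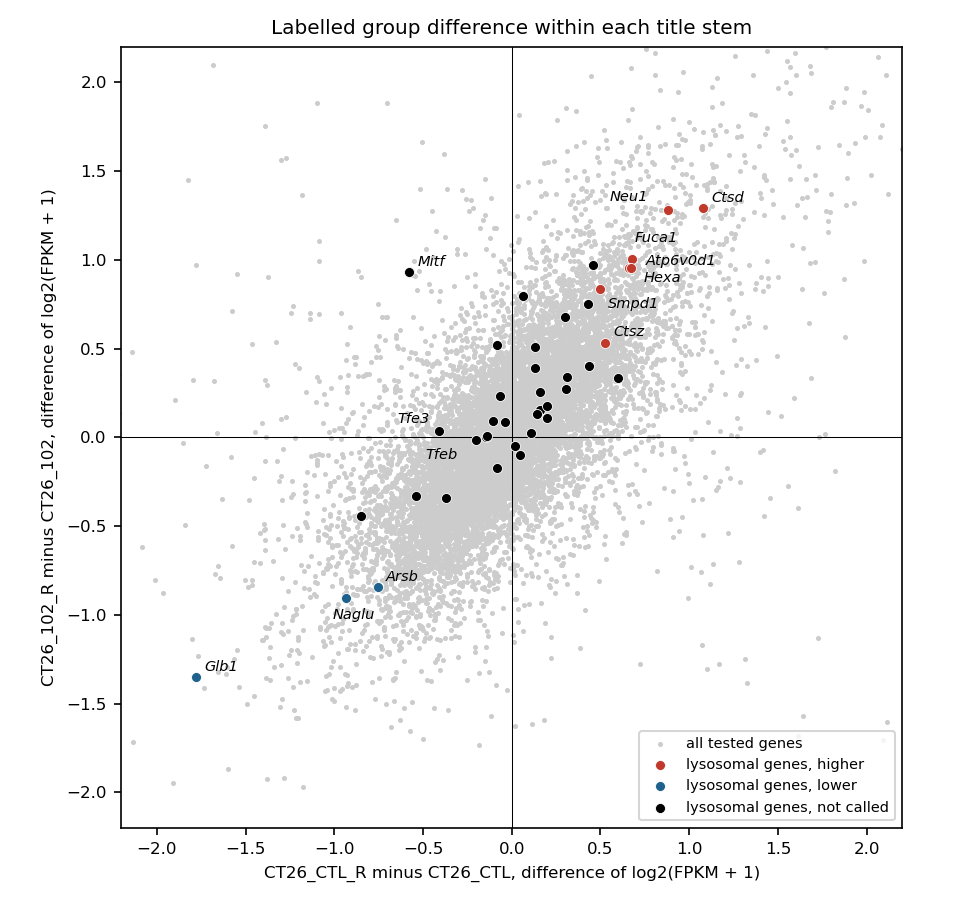
Each point is a gene, with its difference of log2(FPKM + 1) between the libraries with and without suffix R in stem CT26_CTL on the x axis and in stem CT26_102 on the y axis; grey points are all tested genes inside the axis limits, and coloured points are lysosomal genes that were higher, lower or not called in the libraries labelled FOSL2-KO. Glb1, Naglu and Arsb lie in the lower left and the 7 genes that rose in the upper right, while Mitf lies in the upper left at -0.58 and 0.93.

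Other genes of the pathway were read from lists that hold none of the 42, and counts are over their tested genes. Of 15 further proton pump subunits 5 rose and 0 fell, with 10 higher and 0 lower at an unadjusted p under 0.05 (limma). The list's median log2 difference was 0.56, against 0.00 over all tested genes, of which 7.57% rose and, at an unadjusted p under 0.05, 19.2% were higher and 16.9% lower. Atp6v1f, a subunit of the central stalk, was at 177 and 361 FPKM in the libraries with suffix R, against 82.2 and 190.2 FPKM in those without. Atp6v1d was at 41.0 and 41.6 FPKM with suffix R, against 17.0 and 22.7 FPKM without. The small membrane subunit Atp6v0e2 was at 14.2 and 14.7 FPKM with suffix R, against 5.25 and 7.52 FPKM without, and Atp6v0b at 66.9 and 99.4 FPKM, against 32.3 and 64.2 FPKM. Subunits of both the cytosolic and the membrane part were among those that rose.

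Of 29 further hydrolases and activators 1 rose and 0 fell (limma, 3 higher and 1 lower at an unadjusted p under 0.05), below the shares of all tested genes, with a median of 0.12. That gene was Aga, which cleaves the link between sugar and asparagine, at 37.6 and 36.3 FPKM with suffix R, against 15.7 and 19.3 FPKM without. Of 22 further membrane proteins and transporters 4 rose and 0 fell (7 higher and 2 lower at an unadjusted p under 0.05), with a median of 0.02. The shares of all tested genes were 7.57% risen and 5.32% fallen, with 19.2% higher and 16.9% lower at an unadjusted p under 0.05. Cd68, a lysosomal glycoprotein best known from macrophages, was at 63.8 and 86.4 FPKM with suffix R, against 8.49 and 28.3 FPKM without, a log2 difference of 2.17 ± 0.29 (SE, limma adjusted p = 0.0252). The others were Cln3, deficient in Batten disease, at 7.35 and 8.45 FPKM with suffix R against 3.32 and 3.97 FPKM without, the peptide transporter Slc15a4 and Sidt2. The monocyte gene Cd14 rose as well, at 34.8 and 38.8 FPKM with suffix R against 12.4 and 22.0 FPKM without, whereas Lyz2 and Tyrobp moved in opposite directions in the stems. The part of myeloid transcripts in the Cd68 values was not tested.

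Of 37 autophagy genes 6 rose and 0 fell (limma, 16 higher and 1 lower at an unadjusted p under 0.05), with a median of 0.34. Of all tested genes 7.57% rose and 5.32% fell, and 19.2% were higher and 16.9% lower at an unadjusted p under 0.05. Atg9b, a lipid scramblase of the early autophagosome, was at 55.5 and 135.9 FPKM with suffix R, against 25.6 and 59.8 FPKM without. Gabarapl2, of the family that is linked to autophagosome membranes, was at 32.3 and 39.5 FPKM with suffix R, against 14.6 and 21.6 FPKM without. Map1lc3a and Atg14 also rose, at 7.79 and 4.17 FPKM with suffix R against 2.94 and 1.98 FPKM without, and at 6.79 and 5.00 FPKM against 2.93 and 2.54 FPKM.

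Of 23 genes of enzyme delivery 2 rose and 0 fell (limma, 5 higher and 3 lower at an unadjusted p under 0.05), with a median of 0.03. The counts of higher genes are near the shares of all tested genes, 7.57% by adjusted and 19.2% by unadjusted p. Vps18, of a complex that tethers late endosomes to lysosomes, was at 10.4 and 10.2 FPKM with suffix R, against 5.38 and 5.84 FPKM without, and Vps33a, of the same complex, at 27.3 and 21.5 FPKM, against 17.6 and 12.2 FPKM. Of 15 genes of nutrient sensing 1 rose and 0 fell (4 higher and 0 lower at an unadjusted p under 0.05), with a median of 0.08, and 1 of 15 is near the share of all tested genes. That was Flcn, which controls the GTPases that hold TFEB at the lysosome, at 27.2 and 19.99 FPKM with suffix R, against 13.0 and 13.7 FPKM without (limma adjusted p = 0.0489).

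**Figure D4:**
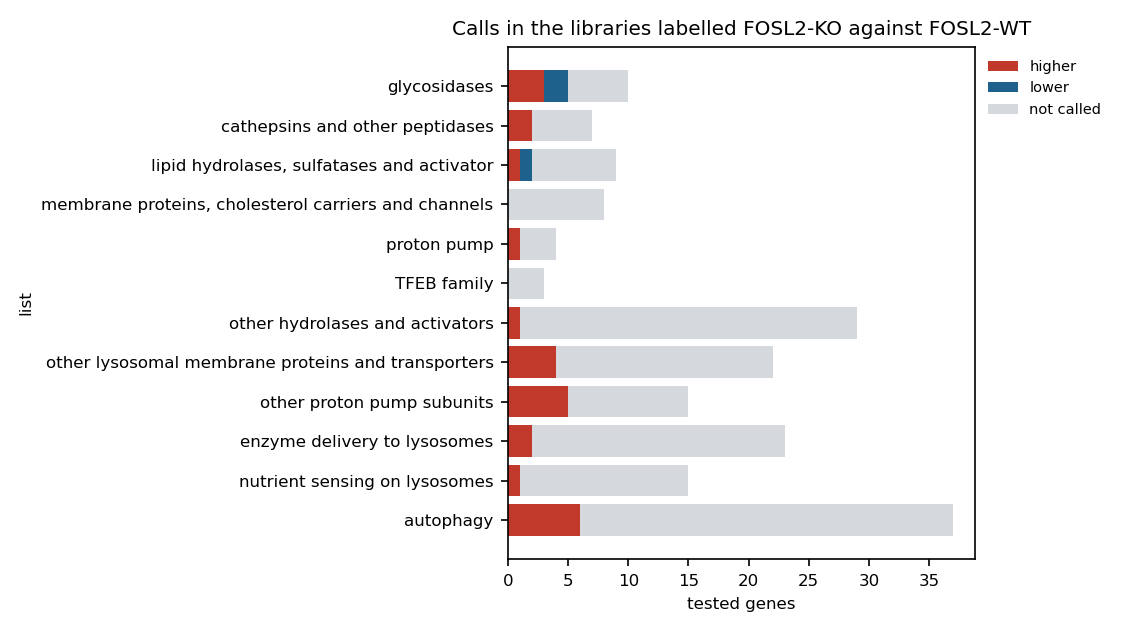
Number of tested genes that were higher, lower or not called with suffix R (labelled FOSL2-KO, chemoradiotherapy) against without it (FOSL2-WT, PBS), by limma adjusted p under 0.05, for the 6 roles of the lysosomal genes and 6 lists of further genes. Lower calls stand only in the bars of glycosidases, with 2, and of lipid hydrolases, sulfatases and activator, with 1.

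Between title stems 2 lysosomal genes were higher in stem CT26_102, Man2b1 and Manba, and 8 were lower, while 31 of 41 did not pass. Those lower were Gla, Ctsl, Psap, Npc1, Naglu, Atp6ap1, Ctsd and Ctsz. Over all tested genes 12.5% were higher in stem CT26_102 and 9.44% lower (21.9% in either direction), and the median of the 41 genes was -0.08, against 0.05 over all tested genes. This comparison uses the same 4 libraries as that of the labelled groups, and what the stems stand for is not in the labels. In a limma fit without the suffix 0 of 41 passed and the smallest adjusted p was 0.159, where 0.284% of all tested genes were called. In that fit 7 of 41 had an unadjusted p under 0.05, a share near the 16.7% of all tested genes. With folds taken on FPKM + 1, 2 lysosomal genes were over 1.5-fold higher in both pairs, against 8.56% of all tested genes, and 3 lower, against 5.61%. By the ratio of FPKM itself Lipa was also over 1.5-fold higher in both, at 1.52 times with suffix R and 1.63 without. By that ratio Naglu, at 0.664 times in both pairs, and Npc1, at 0.651 and 0.513 times, were also lower.

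Gla (ENSMUSG00000031266, chromosome X, 134588149 to 134601125, minus strand) was lowest relative to stem CT26_CTL. It was at 11.3 and 6.30 FPKM in CT26_102_R and CT26_102, against 22.04 and 16.1 FPKM in CT26_CTL_R and CT26_CTL (log2 difference -1.07 ± 0.15, SE, n = 2 per stem, limma adjusted p = 0.0153). Ctsl (chromosome 13, 64359337 to 64370890), cathepsin L, was at 280.1 and 260 FPKM in stem CT26_102 with and without suffix R, against 527 and 459 FPKM in stem CT26_CTL, a log2 difference of -0.86 ± 0.09 (adjusted p = 0.00928 in the limma fit). Psap (chromosome 10, 60277627 to 60302597), the precursor of saposins that present lipids to hydrolases, was at 171 and 168 FPKM in stem CT26_102, against 309 and 286 FPKM in stem CT26_CTL, a log2 difference of -0.81 ± 0.09. Between the labelled groups neither Ctsl nor Psap passed, with folds of 1.08 and 1.15 for Ctsl and of 1.02 and 1.08 for Psap. Ctsl shares 26.8% of its exonic bases with the antisense locus Gm47123, which was at or under 0.0987 FPKM in all libraries.

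Npc1, the membrane protein of cholesterol export, was at 4.53 and 3.21 FPKM in stem CT26_102, against 6.95 and 6.26 FPKM in stem CT26_CTL (log2 difference -0.66 ± 0.15, limma adjusted p = 0.0381). Atp6ap1 passed narrowly (limma adjusted p = 0.0498) and lost the call with a pseudocount of 0.5 or 0.1. Naglu, Ctsd and Ctsz were called in both comparisons, with stem differences of -0.54, -0.50 and -0.39 on the log2 scale, against labelled group differences of -0.92, 1.19 and 0.53 in the same order. The stem calls of Naglu and Ctsz were lost with the length trend removed, and those of Ctsd and Ctsz without the mean-variance trend. Naglu thus was lowest, at 6.24 FPKM, in CT26_102_R, and Ctsd lowest, at 205 FPKM, in CT26_102.

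Man2b1 (chromosome 8, 85083270 to 85098282), the alpha-mannosidase, was at 11.9 and 6.40 FPKM in CT26_102_R and CT26_102, against 4.02 and 3.80 FPKM in CT26_CTL_R and CT26_CTL (log2 difference 0.99 ± 0.21, SE, n = 2 per stem, limma adjusted p = 0.0350). Manba (chromosome 3, 135485611 to 135571404), the beta-mannosidase, was at 2.83 and 2.96 FPKM in stem CT26_102, against 1.403 and 1.38 FPKM in stem CT26_CTL, a log2 difference of 0.70 ± 0.14. The difference of Man2b1 was 1.36 in the pair with suffix R and 0.62 in the pair without. Both calls were lost when a trend with exonic length was removed. Glb1 did not pass between stems, at 1.81 times with suffix R and 1.25 times without (limma adjusted p = 0.0736).

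**Figure D5:**
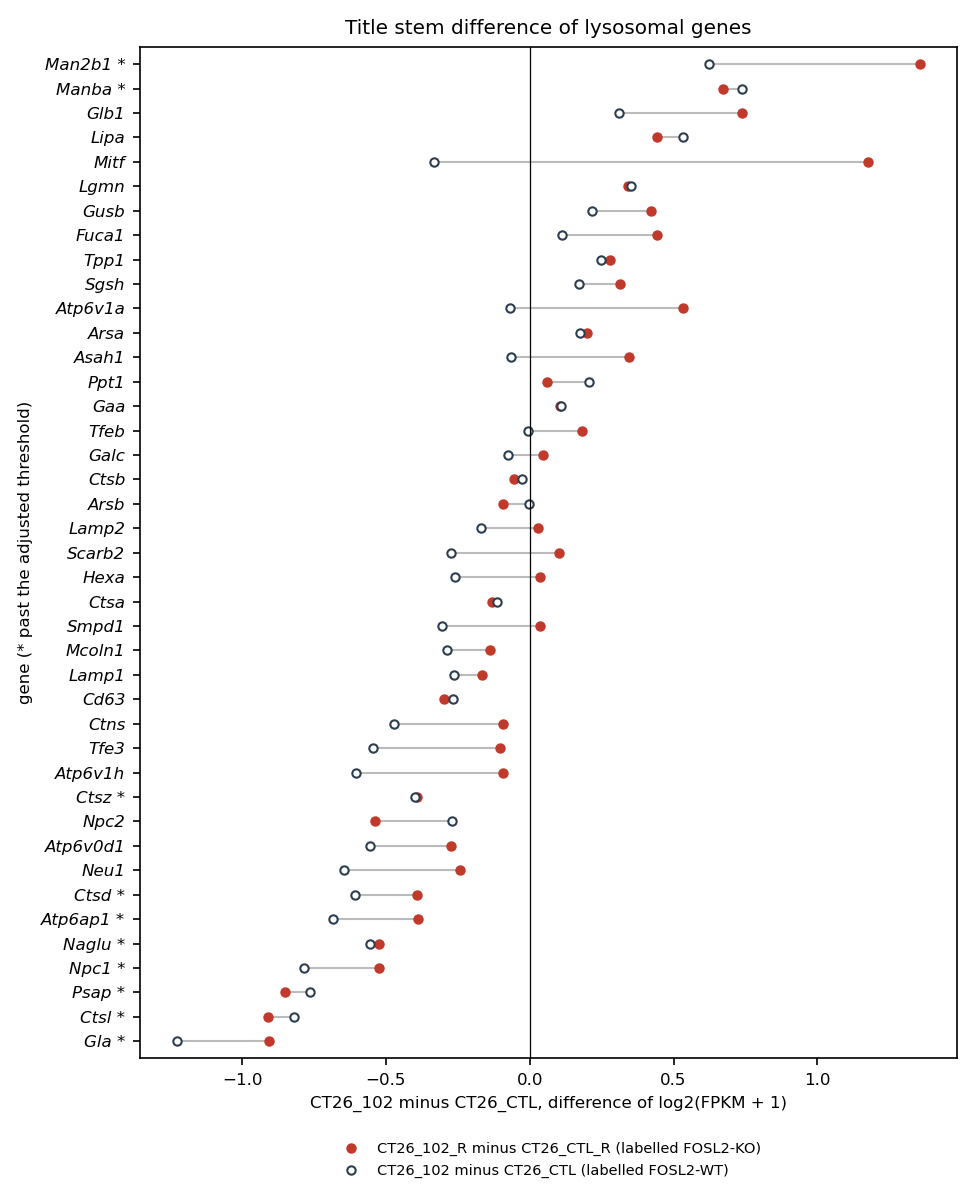
Difference of log2(FPKM + 1) between stem CT26_102 and stem CT26_CTL for the 41 tested lysosomal genes, sorted by the fitted difference; filled points compare the libraries with suffix R, open points those without, and a star marks genes past the adjusted threshold. Gla, at -0.91 with suffix R and -1.23 without, lies lowest, Man2b1 highest, and the points of Mitf lie on opposite sides of 0.

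Of 23 genes of enzyme delivery 3 were higher and 2 lower in stem CT26_102 (limma), shares near the 12.5% and 9.44% of all tested genes. Igf2r, the large mannose 6-phosphate receptor that carries hydrolases to lysosomes, was at 8.15 and 7.79 FPKM in CT26_102_R and CT26_102, against 0.711 and 0.713 FPKM in CT26_CTL_R and CT26_CTL. Its log2 difference of 2.39 ± 0.14 (SE, n = 2 per stem) passed with the suffix in the limma fit (adjusted p = 0.00366) and without it (adjusted p = 0.0359). The small receptor M6pr was at 35.7 and 29.3 FPKM in stem CT26_102, against 24.2 and 19.6 FPKM in stem CT26_CTL, and Gnptab, the transferase that starts the mannose 6-phosphate tag, at 8.26 and 9.73 FPKM, against 4.49 and 6.70 FPKM. The 2 genes lower were Rab7 and Vps26a. Gnptg, a further subunit of the same transferase as Gnptab, had a log2 difference of -0.50 ± 0.13 (SE, limma adjusted p = 0.0508), opposite in sign to Gnptab. Between the labelled groups Igf2r did not pass, with a log2 difference of 0.03 ± 0.14 (SE, limma adjusted p = 0.901).

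At an unadjusted p under 0.05, 23.1% of all tested genes were higher in stem CT26_102 and 17.3% lower. Of 29 further hydrolases and activators 3 were called higher in stem CT26_102 and 2 lower (limma), against 12.5% and 9.44% of all tested genes. Gm2a, the activator with which hexosaminidase cuts a ganglioside, was at 8.42 and 7.02 FPKM in stem CT26_102, against 3.96 and 3.02 FPKM in stem CT26_CTL. Of 15 further proton pump subunits 0 were higher and 2 lower (limma, 1 higher and 8 lower at an unadjusted p under 0.05), Atp6v1f and Atp6v0b, with a median of -0.43. Of 37 autophagy genes 1 was higher and 4 lower, among them Atg9b with a log2 difference of -1.24, and of 15 genes of nutrient sensing Mtor was higher and Rheb lower. Of 22 further membrane proteins 0 passed in either direction (limma, 2 higher and 4 lower at an unadjusted p under 0.05), the lower count being near the share of all tested genes.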

How the data were processed

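The deposited table gives FPKM per gene and library, computed by the authors, and carries no read counts. Builds GRCm38 and mm10, names of 1 assembly, are given per the submitters' processing notes. Libraries came from a SMARTer mRNA-seq kit, per the labels' protocols. The aligner, the quantifier and whether reads were counted by strand are steps not given in the sources used here. Depth was estimated by taking the most frequent low value of genes of at least 300 bases as 1 fragment. Between 21.86% and 24.01% of values below 5 fragments were whole within 0.02 fragments, so depth is approximate. Groups came from genotype labels and stems from titles. No label says whether the libraries are separate cultures, and the p-values therefore cover only the spread among these 4 libraries, possibly technical. R 4.3.3 with limma 3.58.1 (eBayes with a mean-variance trend, two-sided, Benjamini-Hochberg) was fitted to log2(FPKM + 1), which understates folds of low genes. The prior added 4.01 degrees of freedom. Errors are those of the fit with both terms. The script was tested on simulated data. Positions and exonic lengths are from GENCODE M21, which holds 99.67% of the identifiers, and 15 of the 42 genes share exonic bases with another gene. Promoter windows are from RefSeq, build GRCm38.p6. They were found for 37 of 42 genes. Named genes are those past the threshold in either comparison, Glb1, the TFEB family and up to 4 called genes of each further list, with other members by values or ranges. The members and lists were chosen with earlier results of these data known. Values of 1 gene of a further list are not reported here.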

Additional observations from a re-analysis of the deposited data

Results flagged for a closer look

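Mitf went opposite ways in the stems. Its log2 difference between the libraries with and without suffix R was 0.93 in stem CT26_102 and -0.58 in stem CT26_CTL. Between stems it was 1.18 with suffix R and -0.33 without. Scarb2, a membrane protein that carries glucocerebrosidase to lysosomes, also went opposite ways, with a log2 difference between stems of 0.10 with suffix R and -0.27 without. Each value compares 1 library with 1 library, so neither difference was tested, and only opposite differences over 0.1 on both sides were taken up.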

How the results depend on the processing

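The count of lysosomal genes called between the labelled groups, 10, was 0 with no filter on low values and 2 with a filter of 0.1 FPKM, where Glb1 and Ctsd remained. It was 0 with no replicate block, that is without the title stem, and between 0 and 0 without each library in turn, where the fit has a single term and the lone library is assumed to vary like the others. The stem count, 10, was 0 with no filter, 3 with a filter of 0.1 FPKM, 0 without the suffix term, and between 0 and 0 without each library. Other settings (pseudocounts, rescaling, no variance trend, and a length trend removed, the last chosen after seeing the data) gave 8 to 11 calls between the labelled groups and 7 to 11 between stems, and counts over 1.5-fold of 7 to 8 and 4 to 7. More low genes enter without the filter, and the cause of the lost calls was not tested. With all 4 libraries kept, no called gene changed sign. Of genes that were not called, Galc then turned to -0.009 between the labelled groups with upper-quartile rescaling. With the length trend removed Manba turned to 0.089, Psap to -0.015, Lamp2 to 0.133 and Mcoln1 to 0.039 between the labelled groups, and Tfeb to -0.041 between stems. Further signs of genes not called differed from the fit in the 1 pair left whole when a library of the other stem is omitted. In CT26_CTL_R minus CT26_CTL alone, Mitf was at -0.579, Atp6v1a at -0.083 and Atp6ap1 at -0.064. Ppt1 was at 0.045, Manba at 0.016 and Galc at -0.039 in that pair, which is not a fit of 3 libraries. Against the median of glycosidases alone Glb1 stood at 0.741 and 0.342 times with suffix R, against 2.56 and 1.77 times without. The median log2 difference of all genes between the labelled groups was -0.05 with upper-quartile rescaling, and between stems 0.00 with median-of-ratios rescaling. How precision depends on depth was not tested.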
